A study of Mus musculus with 16 samples.

Results

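Called R-loops of Xpo4 knockout cells were sorted by whether the same genomic region was pulled down with and without RNase R, and 1521 regions passed in both preparations while no wild type list held a peak there. The regions were chosen by the peak calls themselves. Peaks of the 2 knockout RNase R+ lists were merged, and a merged region on chromosomes 1 to 19 or X was kept where it held a peak of both RNase R+ lists, overlapped by at least 1 bp a peak of at least 1 of the 2 knockout RNase R- lists, and overlapped no peak of the 4 wild type lists. These 1521 regions, called shared regions here, were 15.4% (95% Wilson interval 14.7 to 16.1) of the 9896 merged knockout RNase R+ regions, and all 8 lists together merged into 50279 regions. Intervals reflect counting error alone, because neighbouring regions of a library are not independent samples.

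The measurements were DRIP-seq, in which the antibody S9.6 captures DNA:RNA hybrids and the captured DNA is sequenced. The cells were mouse embryonic fibroblasts of the established line NIH/3T3, unmodified (wild type, WT) or with an Xpo4 knockout (KO) made by CRISPR-Cas9 and held as 1 edited line. DNA of every sample was fragmented by 4 restriction enzymes (AluI, DdeI, MboI, MseI) and then received RNase R (RNase R+) or only its buffer (RNase R-). Each of the 4 groups, KO RNase R-, KO RNase R+, WT RNase R- and WT RNase R+, had 2 replicates, and the 8 immunoprecipitates were the samples analysed of 16. Nothing in the labels says that replicates came from separate cultures, so any spread between them may be technical.

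An R-loop is a stretch of RNA paired with its template DNA while the other DNA strand stays single. R-loops form most readily where the RNA is rich in G or in purines, and they are known to gather at the starts and ends of active genes. RNase R degrades linear RNA from a free 3′ end and leaves circular RNA intact, and peaks called after RNase R are what the study named ciR-loops, hybrids of circular RNA. Exportin 4, the product of Xpo4, is a nuclear export receptor. The question addressed here is which places in the knockout genome were called under both conditions, and how they differ from places called under 1 condition.

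The shared regions fell into several kinds of sequence, and an example of 3 of them is printed because the sequence itself is what sets the kinds apart. All are from GRCm38 and read 5′ to 3′ on the strand named. The first is the region with the highest RNase R+ fold enrichment (chr12:97061423-97061670, plus strand, outside genes), where capitals mark 242 bases that were identical to mitochondrial DNA.
Chromosome 12 region: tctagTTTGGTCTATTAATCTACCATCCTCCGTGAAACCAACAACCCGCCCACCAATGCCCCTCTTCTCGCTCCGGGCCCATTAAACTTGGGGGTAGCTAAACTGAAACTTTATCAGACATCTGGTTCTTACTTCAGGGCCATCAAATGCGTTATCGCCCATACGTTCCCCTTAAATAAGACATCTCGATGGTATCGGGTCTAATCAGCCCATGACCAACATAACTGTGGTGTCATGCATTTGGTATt
The second is part of a region of Eif4a2 that overlaps an exon (chr16:23108423-23108572, plus strand, which is the coding strand), with runs of 3 or more G in capitals. The label exon stands for the whole region, and which of the printed bases are exonic is not marked.
Eif4a2 exon: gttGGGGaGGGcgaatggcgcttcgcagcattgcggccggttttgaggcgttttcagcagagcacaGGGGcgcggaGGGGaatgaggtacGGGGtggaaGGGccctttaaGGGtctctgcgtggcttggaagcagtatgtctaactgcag
The third holds a small RNA gene, U1 snRNA gene Gm24830 (chr3:96328410-96328605, plus strand), with the annotated RNA in capitals.
U1 gene Gm24830: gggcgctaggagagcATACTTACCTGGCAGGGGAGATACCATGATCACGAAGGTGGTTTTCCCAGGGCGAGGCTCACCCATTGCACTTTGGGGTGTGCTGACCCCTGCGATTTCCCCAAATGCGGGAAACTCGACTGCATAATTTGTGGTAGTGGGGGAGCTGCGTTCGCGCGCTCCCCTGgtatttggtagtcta

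The calls that chose the regions are given first, as a description. Of the 9896 merged KO RNase R+ regions, 2256 (22.8%) held a peak of both RNase R+ lists. Of these 2256, 1932 (85.6%) also overlapped a KO RNase R- peak, and 411 of the 1932 (21.3%) overlapped a WT peak and were left out. A further 251 regions were called in both RNase R+ lists and in no other list (RNase R+ only). Among the 1521 shared regions, 1150 (75.6%, interval 73.4 to 77.7) had a peak in both RNase R- lists, while the share over all KO RNase R+ regions that touched an RNase R- peak was 60.1%. The rule asked for an RNase R- peak, and nothing is read from this count. A peak in RNase R- replicate 1 was present in 1291 shared regions and in replicate 2 in 1380.

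The overlap was rarely marginal, since the median shared region was covered over 100% of its width by its widest-overlapping RNase R- region, and 1485 were covered over at least 0.5 of it. The 3 smallest overlaps were 14 bp in Syn1 on chromosome X, 118 bp in Macf1 on chromosome 4 and 118 bp in a region outside genes on chromosome 6. Just outside the rule, the nearest RNase R- peak lay 279 bp from an RNase R+ region in Asap1 on chromosome 15, 315 bp from 1 on chromosome 7 and 317 bp from 1 in Gm41300 on chromosome 15. The Syn1 region had fold enrichments of 7.28 and 6.88 in the RNase R+ lists, and the Asap1 region 4.69 and 6.33. The width of shared regions ranged from 233 to 4334 bp with a median of 334 bp, against 322 bp for RNase R+ only regions.

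The fold enrichment of a peak is the fragment coverage at its summit divided by the level expected there, as the peak caller gives it. In the RNase R+ lists the median of the shared regions was 7.80 in replicate 1 (3.49 to 106) and 7.63 in replicate 2 (3.03 to 112). In the RNase R- lists it was 9.22 in replicate 1 (3.09 to 173, 1291 regions) and 9.49 in replicate 2 (3.13 to 115, 1380 regions). These folds rest on few fragments, with a median summit height of 17 and 16 fragments in the RNase R+ lists and 19 and 20 in the RNase R- lists. Fold enrichment was lower after RNase R by a median of 0.23 on the log2 scale, a log2 difference of -0.20 in the pair of replicates 1 and -0.30 in the pair of replicates 2. Among the 1150 regions called in all 4 KO lists, 581 (50.5%) were lower with RNase R in both pairs, beside 47.2% of all 1493 regions called in the 4 lists, and 161 (14.0%) were higher in both. The share higher in both is not given over all 1493, and nothing is read from it. Across shared regions the rank correlation (Spearman) was 0.48 between the RNase R+ replicates and 0.68 between the RNase R- replicates. It was 0.51 between RNase R+ and RNase R- in replicate 1 and 0.41 in replicate 2, over regions that share their libraries.

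**Figure D1:**
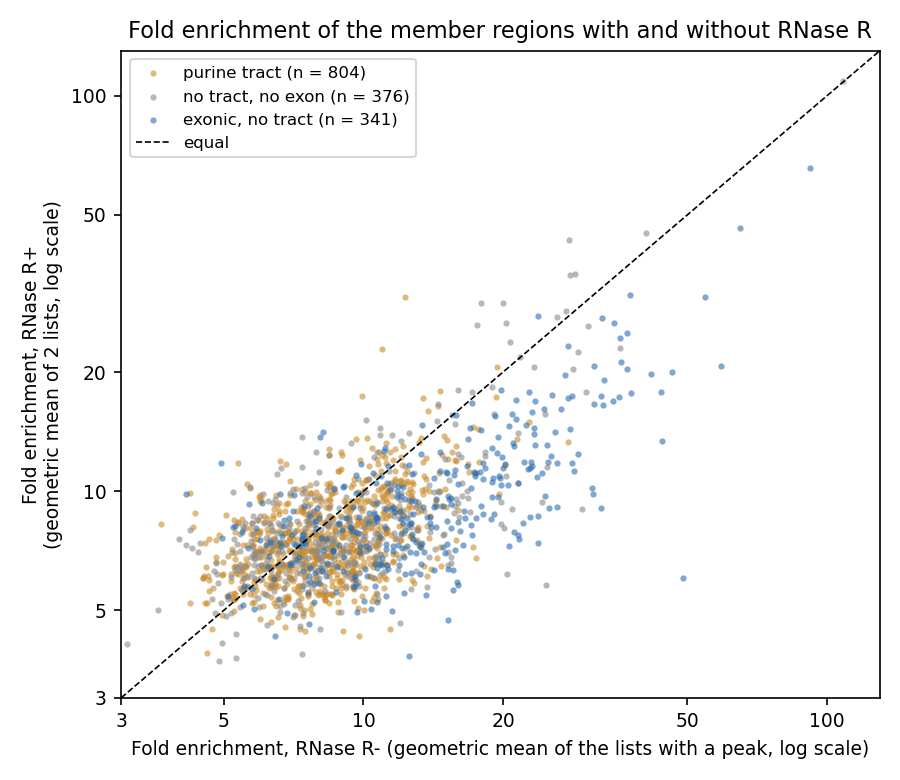
Each point is 1 shared region, with its RNase R- fold enrichment on the x axis and its RNase R+ fold enrichment on the y axis (geometric means over the lists with a peak, both axes logarithmic), coloured by kind of sequence; the dashed line marks equal values. Exonic regions lie mostly below the line at high RNase R- folds, and regions with a purine tract straddle it more closely.

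The 10 shared regions with the highest RNase R+ fold were called in all 4 KO lists, and 5 of the 10 lay outside genes. The chromosome 12 region printed above had folds of 106 and 112 in the RNase R+ lists and 102 and 115 in the RNase R- lists. The values with and without RNase R overlapped. Its 242 mitochondrial bases matched positions 15675 to 15916 of the mitochondrial genome at 100% identity. The mitochondrial genome itself carried a peak over its whole length in each KO list, with folds of 477 and 585 after RNase R and 461 and 529 without it. In the WT RNase R- lists the highest mitochondrial fold was 69.7 and 88.6, and in the WT RNase R+ lists 2.96 and 3.38. The part of mitochondrial fragments in the chromosome 12 region was not tested. A second shared region, in an intron of Myo3a (chr2:22589456-22589900), matched mitochondrial DNA at 98.7% identity over 446 aligned bases.

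Fhl2, a LIM-domain gene of the actin cytoskeleton and focal adhesions, held the second highest region (chr1:43163093-43163925, exonic and at a promoter). It reached 59.0 and 73.0 with RNase R against 99.3 and 84.9 without, so both RNase R+ values were below both RNase R- values. Eif4a2, an RNA helicase of translation initiation, followed (chr16:23108035-23108710) with 52.2 and 41.3 with RNase R and 60.8 and 69.6 without, again with no overlap.

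Of the 10 regions, 4 were soft-masked as repeats over 100% of their length. In 3 of these 4, on chromosomes 6, 3 and 7, RNase R+ values exceeded RNase R- values in both pairs, and in the other in 1 pair. The chromosome 6 region (chr6:4096109-4096372) had 49.4 and 37.5 with RNase R and 22.9 and 33.7 without. Ncl, the gene of the nucleolar protein nucleolin, had 38.5 and 25.4 with RNase R and 39.5 and 35.9 without in a region of 1109 bp that spans Snord82 (chr1:86356251-86357359). The region at Rpl17, a ribosomal protein gene, and Snord58b had 39.0 and 24.7 with RNase R and 48.8 and 61.1 without.

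**Figure D2:**
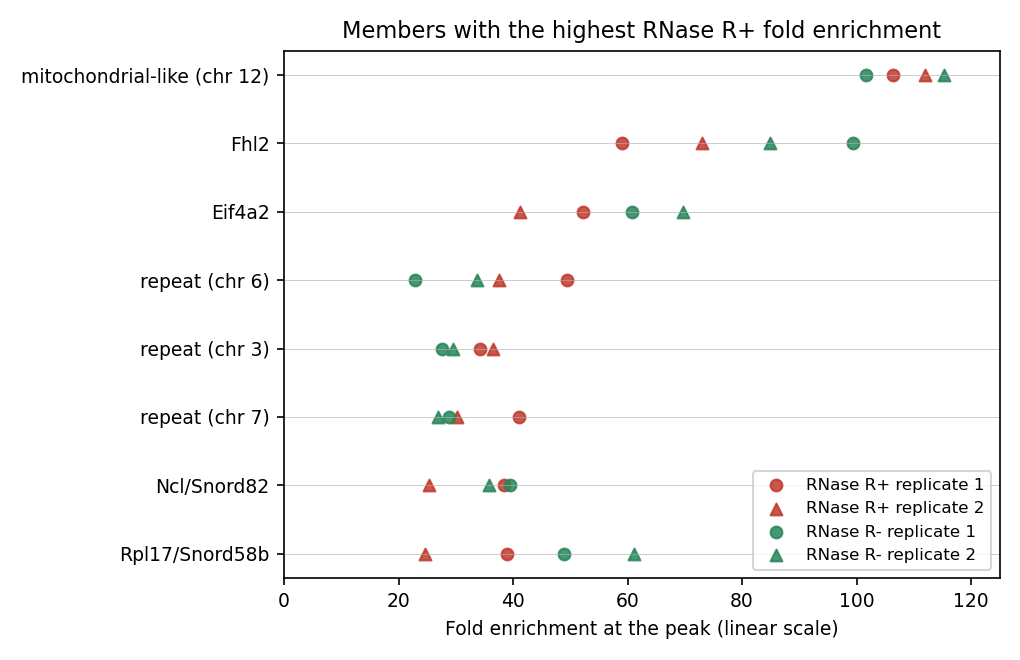
Fold enrichment (x axis, linear) of 8 of the 10 shared regions with the highest RNase R+ fold, with 1 symbol for each of the 4 KO lists. RNase R+ symbols lie left of both RNase R- symbols at Fhl2, Eif4a2 and Rpl17/Snord58b, and right of both at the 3 repeats of chromosomes 6, 3 and 7.

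Among regions called in all 4 KO lists, the sizes of the 2 preparations differed most at a few places. Among the 5 regions with the lowest RNase R+ fold relative to RNase R- were a promoter region of Trim39 (4.48 and 7.44 against 22.1 and 27.6), an exonic region of Neat1 (11.8 and 6.94 against 31.7 and 33.6) and a promoter region outside genes on chromosome 2 (6.09 and 6.28 against 26.7 and 15.6). An exonic region of Atf4, a transcription factor of the stress response, had 17.9 and 10.0 against 58.8 and 33.2. In each of these 4 regions both RNase R+ values were below both RNase R- values. At the other end stood an exonic region of Xdh, the gene of xanthine dehydrogenase, with 10.7 and 12.9 after RNase R and 6.17 and 3.92 without. The Xdh region was soft-masked as a repeat over 100% of its length. Another 3 of the 5 highest differences were at regions with a purine tract of 131, 207 and 200 bp, on chromosomes 11 and 9 outside genes and at the promoter of Dip2b. In these 4 regions the order was the opposite, and these values were selected as extremes.

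The rule did not use the annotation and sequence of the shared regions. These were compared with other sets of called regions and with 127967 windows of 334 bp placed every 20000 bp along the genome. Sequence and calls are still not separate measures, since 60.2% of the edges of shared regions lay within 3 bp of a restriction site, against 12.3% of window edges. The set most like them in its KO calls is the 411 regions that also had a WT peak. The RNase R+ only regions share the RNase R+ calls alone. A further set is 9711 regions called in both KO RNase R- lists and touched by no RNase R+ and no WT peak (RNase R- only). Promoters, taken as 1000 bp on each side of a transcript start, were overlapped by 341 shared regions (22.4%, interval 20.4 to 24.6), 6.37% of RNase R+ only regions, 12.9% of RNase R- only regions and 7.01% of genome windows. Exons were overlapped by 382 shared regions (25.1%, 23.0 to 27.4), against 7.97% of RNase R+ only, 12.6% of RNase R- only and 8.13% of windows. A gene was overlapped by 921 shared regions (60.6%), 53.0% of RNase R+ only and 52.6% of RNase R- only regions. Of the 7640 regions called in only 1 RNase R+ list, 10.7% overlapped a promoter, 9.50% an exon and 51.0% a gene. For the 411 regions with a WT peak these shares were 13.9%, 11.2% and 47.7%. Over the middle 200 bp of each region, which removes the differences in width, the exon share was 21.0% of shared, 6.77% of RNase R+ only and 10.7% of RNase R- only regions. In regions called in only 1 RNase R+ list this exon share was 8.51%, and in those with a WT peak 8.76%.

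Every shared region was called in both RNase R+ lists and every RNase R- only region in both RNase R- lists, so the 2 libraries of a set count the same places. Their shares have no spread of their own between replicates, and the differences between the sets are given without a test. They depend in part on the need for a peak in both RNase R+ lists. With replicate 2 or replicate 1 alone the rule kept 3360 and 3689 regions. Such a run changes both the library and the need for 2 calls, and these cannot be told apart. When the rule used RNase R+ replicate 2 alone (without replicate 1), the promoter share was 15.4%, an excess over RNase R- only regions of 1.65 percentage points in place of 9.56, and the gene share was lower than theirs by a difference of -0.72 in place of 7.99 higher. Without replicate 2 the promoter excess was 5.72 points and the gene excess 6.60.

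**Figure D3:**
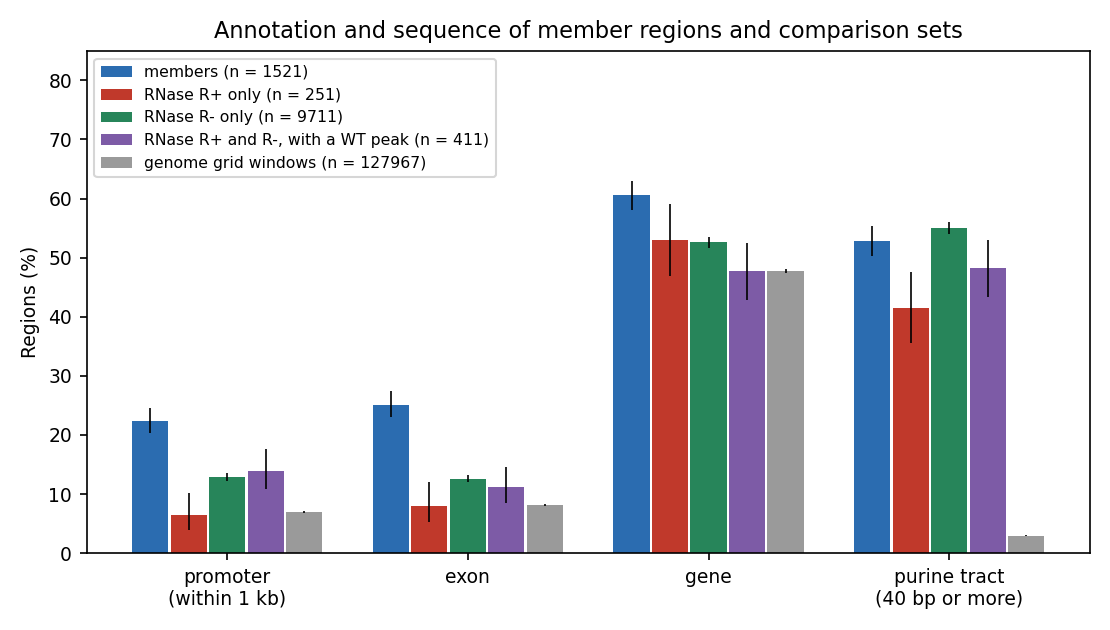
Bars give the percentage of regions in each set (y axis) that overlap a promoter, an exon or a gene or hold a purine tract of 40 bp or more; error bars are 95% Wilson intervals. Shared regions (members) stand above every other set for promoters (22.4%) and exons (25.1%), and all 4 peak sets hold purine tracts far more often than the genome windows (2.95%).

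The share of exonic regions followed the RNase R- fold enrichment. Shared regions called in both RNase R- lists were set beside RNase R- only regions of the same fold class (geometric mean of the 2 lists). With an RNase R- fold under 6, shared regions were 79 of 2201 in both sets (3.59%), and they were 45.6% at folds of 12 to 20 and 109 of 114 (95.6%) at folds of 20 or more. Regions called in only 1 RNase R+ list are in neither set. At folds of 6 to 8 exons were overlapped by 12.8% of shared and 12.4% of RNase R- only regions, at 8 to 12 by 23.1% and 13.2%, and at 12 to 20 by 47.8% and 23.2%. At folds of 20 or more, 80 of 109 shared regions were exonic and 2 of 5 RNase R- only regions. The exon shares of the 2 sets lay close together below a fold of 8 and apart above it. The median GC content was higher in shared regions in every class, from 44.7% against 42.5% under a fold of 6 to 52.5% against 39.1% at 12 to 20. Since a stronger peak passes a caller more often, membership and fold in RNase R- are not separate measures.

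**Figure D4:**
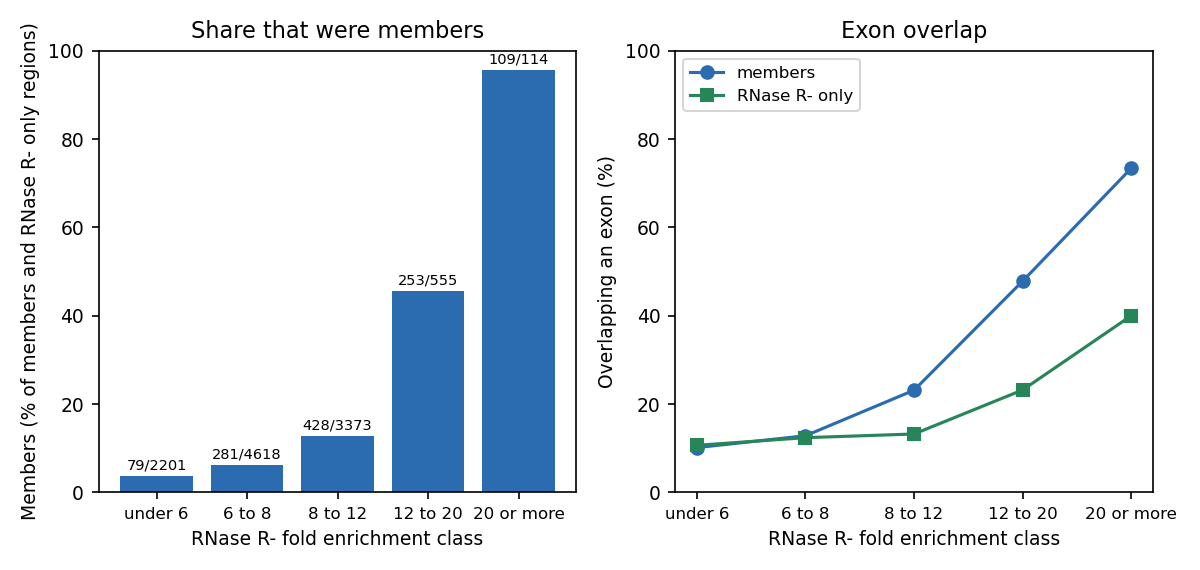
Left, shared regions (members) as a percentage of shared and RNase R- only regions (y axis) in 5 classes of RNase R- fold enrichment (x axis), with the numbers above the bars. Right, the percentage of each set that overlaps an exon in the same classes; the top class of RNase R- only holds 5 regions.

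Purine tracts made up the larger sequence class. A run of at least 40 bases that are all purines on 1 strand lay in 804 shared regions (52.9%, 50.4 to 55.4), in 41.4% of RNase R+ only regions, 55.0% of RNase R- only regions and 2.95% of genome windows. Such a run also lay in 51.2% of regions called in only 1 RNase R+ list and in 48.2% of those with a WT peak. The median longest tract of the 804 regions was 148 bp and the longest was 571 bp, and 94.9% of these regions overlapped no exon. Nearly all tract bases, 99.98% on average, are soft-masked as repeats in the reference. Where such a region lay in protein-coding genes of 1 orientation, the purines were on the coding strand in 155 of 293 (52.9%, 47.2 to 58.5), against 42.2% (40.1 to 44.5) of RNase R- only regions and 43.4% (40.8 to 46.0) of genome windows. The share was 38.2% (24 to 55) in 34 RNase R+ only regions and 44.1% (32 to 57) in 59 with a WT peak, with intervals that overlap that of shared regions. With only 1 RNase R+ list it was 41.8%. Tract regions had median folds of 7.28 and 7.43 with RNase R against 8.54 and 8.72 without. The median log2 difference over the 573 in all 4 lists was -0.17, and it was -0.17 and -0.21 in the 2 pairs, beside -0.29 over the 1150 shared regions in all 4 lists.

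The 717 shared regions without a tract were more often genic. Exons were overlapped by 341 of them (47.6%, 43.9 to 51.2), against 11.6% (7.35 to 17.7) of RNase R+ only and 23.2% (21.9 to 24.4) of RNase R- only regions without a tract. The 341 exonic regions had a median width of 502 bp, a median GC content of 56.1% and median folds of 9.36 and 8.37 with RNase R and 13.0 and 14.1 without. In the 313 of them called in all 4 lists, the median log2 difference was -0.62, -0.42 in the pair of replicates 1 and -0.76 in that of replicates 2. Both pairs were lower with RNase R in 216 of the 313 (69.0%), against 42.4% of tract regions. Of the 143 regions outside genes and promoters and without a tract, the 86 in all 4 lists had a median log2 difference of 0.049, and the pairs differed in sign (0.040 and -0.032). Exonic regions had the highest RNase R- folds of these classes and the lowest log2 difference. The log2 difference contains the RNase R- fold, so the 2 are not separate measures. Of the 311 exonic regions in protein-coding genes, 90 lay within 1 kb of a transcript start, 81 within 1 kb of a transcript end, 89 within 1 kb of both and 51 of neither. Among RNase R- only regions of the same kind the 4 shares were close to these, 27.1% at a start, 29.2% at an end, 27.9% at both and 15.8% at neither, while 42.2% of the exonic genome windows lay near neither.

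The coding strand was G-rich in the genic regions without a tract. Skew, the number of G minus C over their sum on the coding strand, was above 0 in 402 of 493 shared regions (81.5%, 77.9 to 84.7). The share was 71.5% (69.7 to 73.3) in RNase R- only regions, 57.4% (45.5 to 68.4) in RNase R+ only regions, 48.2% (37.9 to 58.7) in the regions that also had a WT peak, and 54.5% in genome windows. In regions called in only 1 RNase R+ list the share was 66.7% (64.5 to 68.8). Exonic shared regions were above 0 in 82.0% of cases and intronic ones in 80.9%, while the RNase R- only values were 81.1% and 65.8%. With only 1 RNase R+ list the values were 77.6% and 62.9%. Shared and RNase R- only regions were thus close in exons and apart in introns, a difference between exons and introns that was not tested. The median skew of shared regions was 0.26 and that of windows 0.019. A sequence that could fold as a G-quadruplex, 4 runs of at least 3 G with loops of 1 to 7 bases on either strand, was found in 15.6% of shared regions, 4.78% of RNase R+ only regions, 13.0% of RNase R- only regions and 5.71% of windows. The regions that also had a WT peak were close to the shared ones, with 14.1%. A wider region has more room for such a sequence, and the median width was 334 bp in shared and 266 bp in RNase R- only regions. It was 403 bp in regions with a WT peak. Neither G-quadruplex sequences nor purine tracts were compared over the middle 200 bp.

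**Figure D5:**
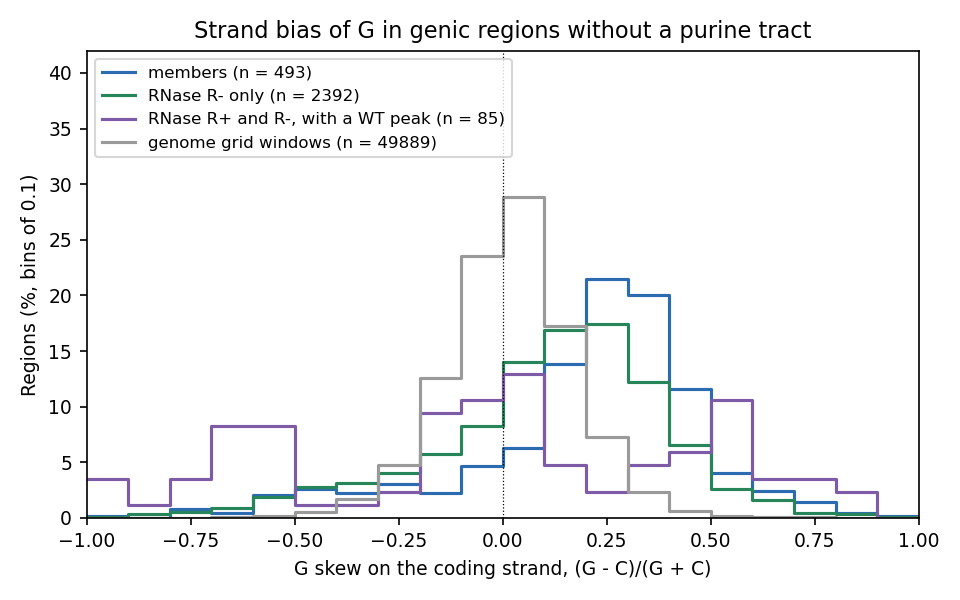
Distribution of G skew on the coding strand (x axis, bins of 0.1) for regions in protein-coding genes of 1 orientation and without a purine tract, as a percentage of each set (y axis). Shared regions (members, n = 493) and RNase R- only regions lie mostly right of 0, genome windows centre near 0, and the 85 regions with a WT peak spread to both sides.

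By gene, 754 of the 21728 protein-coding genes of chromosomes 1 to 19 and X (3.47%) held a shared region. Of these, 673 held 1, 68 held 2 and 13 held 3 or more. Ncl had 3, at folds of 15.3 and 13.0, 38.5 and 25.4, and 8.66 and 5.91 after RNase R. Prrx1, a homeobox gene of mesenchymal cells, had 4, and at its 3 regions without a tract the RNase R+ folds lay between 4.90 and 10.6 and the RNase R- folds between 7.76 and 24.1. These 3 had the same RNase R- fold of 24.1 in replicate 2, so their RNase R- values are not separate. Csf1, which encodes the macrophage growth factor, had 3 regions with RNase R+ folds from 9.85 to 21.3, and Rgs16, a regulator of G-protein signalling, had 3 with 5.01 to 12.5. Cald1 (caldesmon, an actin-binding protein) and Spaca6 each had 4, and Arhgap23, Cemip, Dab1, Tgfbr3, C130026I21Rik and Fgfr2 each had 3. The 3 regions counted for Fgfr2 lie far apart in the annotated gene and include exons of Etos1 and Eef1akmt2. The gene with most regions, 7, was Gm20388, an annotated readthrough that spans the 5S rRNA genes of chromosome 8.

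A width over 1 kb was found at 48 of the 1521 shared regions. It was also found at 36 of the 411 regions with a WT peak, 6 of 251 RNase R+ only and 62 of 9711 RNase R- only regions. The 5 widest shared regions lay in Plec, Zyx, Ehbp1l1, Smtn and Hsp90ab1. Plec, which encodes the linker protein plectin, had a region of 4334 bp with folds of 16.6 and 6.94 with RNase R and 23.5 and 13.9 without. Zyx, the gene of the focal adhesion protein zyxin, had a region of 3238 bp (29.1 and 21.8 against 36.5 and 37.6) and another of 1376 bp beside it at its promoter, both matched to the same RNase R- peaks. Smtn (smoothelin) had 2215 bp (18.6 and 16.4 against 21.7 and 30.1), Hsp90ab1, a heat shock protein 90 gene, 2170 bp (23.7 and 25.1 against 41.2 and 31.0), and Ehbp1l1 2305 bp (13.3 and 8.97 against 10.9 and 11.0). RNase R+ values were below both RNase R- values at Zyx, Smtn and Hsp90ab1, and the groups overlapped at Plec and Ehbp1l1. In all, 8 shared regions were counted as using the same RNase R- peaks as another one. Further neighbours had the same fold in 1 RNase R- list only, as 3 regions of Prrx1 did in replicate 2. Promoters with high folds also included Msl1 (28.8 and 18.8 against 25.4 and 29.9), Eif4a1 (25.1 and 17.1 against 66.7 and 52.3), Kctd10 (16.1 and 24.9 against 45.6 and 46.9) and Kpnb1, the gene of importin beta (26.5 and 14.8 against 39.6 and 43.9).

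Ribosomal protein, Eif and heat shock genes were listed after the regions had been seen, so their counts are a description only. Of 80 ribosomal protein genes 18 (22.5%) held a shared region, beside 3.47% of all protein-coding genes, and 14 (17.5%) held an RNase R- only region, beside 16.1% of all. The 19 regions of these genes were exonic in 18 cases and at a promoter in 16, and none held a purine tract. Their log2 difference was below 0 in 19 of 19, with a median of -0.80, while it was below 0 in 1034 of all 1521 regions. The class most like them, exonic shared regions without a tract, had a median of -0.62 where called in all 4 lists. At Rps16 the folds were 17.4 and 17.2 with RNase R against 33.0 and 38.4 without. Of 54 Eif genes, which encode translation initiation factors, 6 (11.1%) held a shared region, with a median log2 difference of -0.83 over 7 regions, and 14 (25.9%) held an RNase R- only region. Of 27 heat shock genes 2 (7.41%) held a shared region and 5 (18.5%) an RNase R- only region.

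The other lists were chosen for the biology of the experiment. Of 20 genes known as hosts of circular RNA, 2 (10.0%) held a shared region, Rims2 (8.32 and 6.88 with RNase R against 9.93 and 13.7 without) and Pvt1 (10.5 and 13.0 against 6.60 and 7.01), and both regions are intronic with purine tracts of 135 and 70 bp. Of the same 20 genes 10 (50.0%) held an RNase R- only region. Over all protein-coding genes the 2 shares were 3.47% and 16.1%. A gene counted when a region overlapped any part of it, so the shares of all gene lists here depend on gene length, which was not matched. The list of hosts also holds noncoding genes such as Pvt1, which the share over protein-coding genes does not cover. Dhx9, a helicase that unwinds hybrids, was the only 1 of 15 R-loop factors (6.67%) with a shared region (7.05 and 8.28 against 8.80 and 13.3), while 7 of the 15 (46.7%) held an RNase R- only region. Xpo4 itself is in both lists and held no shared region. Of 70 replication-dependent histone genes 0 held a shared region, which allows a share of up to 4.29%, and 0 an RNase R- only region.

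Of 13 nuclear and structural RNA genes 4 (30.8%) held a shared region and 2 (15.4%) an RNase R- only region, beside the 3.47% and 16.1% of protein-coding genes. Neat1, the scaffold RNA of paraspeckles, had 2 regions, with 11.8 and 6.94 and with 18.2 and 16.7 after RNase R, both matched to an RNase R- peak with folds of 31.7 and 33.6. Malat1, an abundant nuclear RNA, had 2 regions. At the second, the RNase R- folds were 173 in replicate 1 and 4.70 in replicate 2, with 10.4 and 12.2 after RNase R, so its RNase R- value rests on 1 library. Gas5 and Snhg1, host genes of small nucleolar RNAs, had 12.5 and 16.7 against 21.2 and 25.7, and 8.32 and 5.11 against 6.95 in the 1 RNase R- list with a peak.

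Small RNA genes of RefSeq were also among the shared regions. A U1, U2 or U6 snRNA gene lay in 15 shared regions (0.986%), 1.59% of RNase R+ only regions, 0.0927% of RNase R- only regions and 0.0203% of genome windows. The share was 1.95% in the 411 regions that also had a WT peak and 0.812% in regions called in only 1 RNase R+ list. The U1, U2 and U6 RNAs are short linear parts of the spliceosome. Their 15 regions comprised 9 with U6, 4 with U1 and 2 with U2 genes, out of 710, 119 and 32 annotated genes of each kind. The median folds of the 15 were 8.75 and 9.52 with RNase R against 7.60 and 7.09 without, and the log2 difference was above 0 in 10 of 15 with a median of 0.34. Several of the 15 had a peak in only 1 RNase R- list, so the RNase R- medians cover different regions. The log2 differences of those regions rest on 1 RNase R- library. At U1 gene Gm24830 the folds were 13.6 and 13.8 with RNase R against 6.82 and 9.57 without. Both RNase R+ values were above both RNase R- values. These genes are multicopy families. The copies were not compared here, and from which copy the fragments came is uncertain. The same holds for the 4 regions with a 5S rRNA gene, 3 of them in the chromosome 8 cluster, whose log2 differences lay between 0.0022 and 0.33. The highest of these differences rests on 1 RNase R- list. The 6 regions with snoRNA genes, all within host genes, went the other way, with median folds of 14.6 and 16.6 against 22.0 and 35.9 and a median log2 difference of -0.75. A 5S rRNA gene lay in 0.263% of shared regions, 0.730% of those with a WT peak, 0.398% of RNase R+ only and 0.0206% of RNase R- only regions. For snoRNA genes these shares were 0.39%, 0%, 0% and 0.0618%. None of 403 tRNA genes was in a shared region (0 of 1521 regions, which allows a share of up to 0.197%). The tRNA share was also 0 in RNase R- only regions and 0.00625% in genome windows, so nothing is read from this 0.

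Telomere repeats, here 2 units of TTAGGG in a row on either strand, lay in 5 shared regions (0.329%, 0.141 to 0.767) and in 4.62% of the 411 regions that also had a WT peak. The share was 0.0515% in RNase R- only regions, 0.0393% in regions called in only 1 RNase R+ list and 0.0203% in genome windows. Of the 251 RNase R+ only regions 0 held such a repeat. At 2 of the 5 shared regions, on chromosome 13 (chr13:120321419-120321657) and in an intron of Flt1, the summit heights lay between 887 and 1136 fragments in all 4 KO lists. The folds there were 29.1 and 23.4, and 16.6 and 12.0, after RNase R. Their expected levels were 34.5 and 73.3 times the lowest of RNase R+ replicate 1. An expected level above 3 times the lowest in both RNase R+ lists was found at 44 shared regions (2.89%).

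The absence of WT peaks, which the rule used, was set beside the level expected by the caller. The lowest expected level was 0.924 and 0.890 fragments in the KO RNase R+ lists and 0.425 and 0.558 in the WT RNase R+ lists, and 0.843 and 0.896 against 0.479 and 0.489 in the RNase R- lists. Height and expected level of each shared region were scaled by this ratio and set against the weakest peak of the same-numbered WT list. For the WT RNase R+ lists, 46.7% (44.2 to 49.2) of the shared regions would have passed in replicate 1 and 69.0% (66.7 to 71.3) in replicate 2, a mean of 57.9 ± 15.8% (SD, n = 2). For the WT RNase R- lists, 88.9% of 1291 and 83.5% of 1380 regions with a KO peak would have passed. The estimate depends on the scaling. With the ratio of uniquely mapped reads of the libraries in its place, the WT RNase R+ values were 89.2% and 99.6% and the WT RNase R- values 44.7% and 46.5%. The order of the 2 preparations was the reverse of that above. Genotype and library depth or background level cannot be told apart in this design.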

How the data were processed

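Peak lists of 8 DRIP-seq immunoprecipitates were used. Inputs and spiked-in E. coli DNA are not analysed here. Adapters were trimmed by the authors, who aligned paired reads to GRCm38 with Bowtie2, removed duplicates, poorly matching and non-unique reads with SAMtools 1.1, and called peaks with MACS2 per replicate at a q of 0.001. The control library is not given in the sources used here. Per the files, the deposited fold enrichment is a ratio of summit height to expected level with 1 added to each, and the deposited p-value and q-value are −log10 values. The deposited score column, made by the caller from the q, was not used.

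Calling each replicate alone makes the number of peaks depend on depth. The lists hold no read totals, but the reporting notes of the study give fewer uniquely mapped reads for both WT RNase R- libraries than for the KO ones, and more for WT RNase R+ replicate 2 than for any KO library. These totals served only to rescale the estimate of what the WT lists could have called. The summit height and the expected level of a peak were solved for from its fold and p, as deposited, under a Poisson distribution, for at least 99.4% of each list. Peaks were merged where they overlapped or touched, with code checked against bedtools 2.31.1 on simulated data. In a region with several peaks of a list, the highest fold was used. The log2 difference is that of the mean log2 folds over the lists with a peak. Genes, exons and starts are from GENCODE M21, small RNA genes and sequence from RefSeq for GRCm38. Mitochondrial matches were found with blastn 2.17.0 (e-value 1e-10). Shares and medians were computed in Python 3.11.15 with numpy 2.4.6, pandas 2.3.3 and scipy 1.17.1.

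The regions and gene lists were chosen with earlier results of these data known. Named regions were the 10 with the highest RNase R+ fold (geometric mean of both lists), the 5 highest and 5 lowest log2 differences, the 5 widest, the 10 highest at a protein-coding promoter, protein-coding genes with 3 or more regions, the 3 nearest the overlap threshold on each side, and all hits in the lists. Purine tracts, skew, fold classes, small RNA genes, telomere and mitochondrial matches and 3 gene lists were examined after the regions had been seen. The alternatives changed the overlap, the q and fold limits, the merging distance, the promoter window, the gene set, the measure and each replicate. Some named regions and sequences are not reported here.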

Additional observations from a re-analysis of the deposited data

How the results depend on the processing

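The 1521 shared regions became 181 with a KO fold of at least 10, and between 1291 and 3689 without 1 library, the highest 2 (3360 and 3689) when the rule used a single RNase R+ list. Under the 12 other alternatives, which include leaving out each RNase R- or WT library, the number stayed within 1.5 times. The shares at promoters and the GC content stayed above those of RNase R- only regions in all 18 and 16 alternatives (lowest differences 1.65 and 3.73 percentage points, both without RNase R+ replicate 1). For promoters the share ranged from 15.4 to 38.9%. The share in genes stayed above in 16 of 17, ranged from 52.9 to 63.0% without 1 library, and was lower by a difference of -0.72 without RNase R+ replicate 1 (52.9%). The cause was not tested.

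The share in both RNase R- lists was 84.5% with a KO fold of at least 10, 71.1% without peaks of a high expected level, and 61.9 to 76.0% without 1 library. The log2 difference was -0.36 with a KO fold of at least 10 and -0.26 to -0.16 without 1 library. The labels do not say whether replicate numbers pair the samples, and the deviations of same-numbered libraries had a correlation (Pearson's r) of 0.03 across the 1150 regions in all 4 KO lists, with only 2 pairs. With the number as a replicate block the log2 difference was -0.23. The share that would pass at the WT level was 100% with a KO fold of at least 10 and 31.0 to 69.1% without 1 library, so it rests on which library is used. It was 94.4% when scaled by uniquely mapped reads. The scaling by reads, the middle 200 bp, regions without tracts and regions in all 4 lists were alternatives chosen after seeing the data.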

Other observations

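The shared regions were unevenly spread over the chromosomes. Their density was 1.19 per Mb on chromosome 17, 1.05 on chromosome 15 and 1.01 on chromosome 1, and it was lowest on chromosome X with 0.116 per Mb and next lowest on chromosome 10 with 0.283. RNase R- only regions had 5.95 per Mb on chromosome 17, 5.47 on chromosome 15 and 1.32 on chromosome X, with a rank correlation (Spearman) of 0.94 over 20 chromosomes that share their libraries. Chromosome copy number in this line was not examined.

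The edges of the regions lay at cut sites of the 4 enzymes more often than those of genome windows. Within 3 bp of a site were 60.2% (58.5 to 62.0) of the 3042 edges of shared regions, 56.2% (51.8 to 60.5) of those of RNase R+ only regions, 63.1% (62.4 to 63.8) of those of RNase R- only regions and 12.3% of the edges of genome windows. Sites were sparse inside them, with a median of 5.78 per kb in shared regions against 18.0 per kb in genome windows. The part of restriction fragment length in which regions were called was not tested.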
